A study of Mus musculus with 12 samples.

Results

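The genes described here are 36 genes of the skeletal muscle fibre, its sarcomere proteins together with proteins of calcium handling and energy supply. They were chosen by symbol, as named genes of fast and slow fibres, and every array probe annotated to those symbols was taken. By role, 12 belong to the thick filament and its M-band, 9 to the thin filament, 7 to the Z-disc and titin, 6 to calcium handling and 2 to energy supply. Of the 36 genes, 35 had a probe, with 74 probes in all, and 34 passed the detection filter and were tested among the 11754 genes of the series. Myh2, the myosin heavy chain of fast oxidative fibres, has no probe in the annotation used here. The 1 probe of Trdn, which encodes triadin of the calcium release complex, was detected on 0 of the 12 arrays.

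Gene expression was measured on one-colour Illumina bead arrays in 12 fresh-frozen mouse samples, which were 4 osteosarcomas (malignant tumours of bone), 4 leiomyosarcomas (malignant tumours named for smooth muscle), 2 normal bone marrows and 2 normal muscles. The design set tumour RNA against the normal tissues. All 12 samples, the normal ones included, carry the genotype label p53 flow/flox, in that spelling, and per the labels the mice were transgenic with a p53 mutation, were kept until a tumour could be seen or a limb was paralysed, and received no treatment. The labels name no recombinase or promoter driving one, no age and no sex, and do not say which muscle was taken. Muscle 1 and bone marrow 2 carry the same animal code. Each of the other samples carries a code of its own, though nothing states that these are separate animals. The p-values below therefore rest on sample-to-sample spread, which may be partly technical.

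A sarcomere is the contractile unit of striated muscle. Thick filaments of myosin pull on thin filaments of actin, the thin filaments are anchored in Z-discs, and titin spans the distance from Z-disc to M-band. Calcium released through the ryanodine receptor binds troponin C and frees the actin for myosin, and the calcium pump of the sarcoplasmic reticulum ends the contraction. Slow and fast fibres use different genes for many of these parts. Bone and marrow cells are not known for this apparatus, and smooth muscle builds most of its contractile filaments with related genes, though it shares some, among them beta-tropomyosin, Tpm2.

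Values are log2 normalised signals, and detection on an array means a detection p under 0.05 for any probe of the gene. The lowest signal of a detected probe lay between 5.11 and 5.62 on the log2 scale, so values near 5 or under lie at the floor. Between 14169 and 18100 of 45281 probes per array were detected. The background constant that had been subtracted was 99.3 to 110.1 for all osteosarcomas and for leiomyosarcomas 3 and 4, and 80.8 to 84.2 for leiomyosarcomas 1 and 2, the marrows and the muscles. Values within those sets are given with the comparisons. The 8 tested osteoblast markers had sample medians of 11.01 to 12.78 in osteosarcomas and of 5.05 or less in every other sample. Of 10 tested smooth muscle markers, 5 to 7 were detected in each osteosarcoma, 5 to 7 in each leiomyosarcoma, 3 in each bone marrow and 6 to 8 in each muscle. Of these 10 genes, 1 rose in leiomyosarcoma against muscle (20.1% of all genes), 3 fell (15.1%) and 6 were not called. Myh11 and Cnn1, 2 defining genes of mature smooth muscle, were detected on 0 of 4 leiomyosarcomas. These 2 do not stand for the list, of which 5 to 7 were detected in each leiomyosarcoma. The list's summed linear level was 6081 to 32952 in osteosarcomas, 9171 to 24213 in leiomyosarcomas, 3842 to 4349 in bone marrows and 40733 to 48887 in muscles.

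Muscle genes are known to be switched on by MyoD-family factors at E-boxes, by MEF2, by serum response factor at CArG boxes and by TEAD factors. RefSeq promoter windows of GRCm38.p6, from 250 bases before to 50 after a start, were found for 26 of the 36 genes, with 31 windows. The letters CANNTG (E-box) stood in 80.6% of the 31 windows and in 72.3% of all 32851 windows, counted on both strands. CAGCTG, a subset of CANNTG, stood in 45.2% of the members' windows and 16.3% of all. CATTCC, bound by TEAD factors, stood in 32.3% of the members' windows and 14.7% of all. For the CArG box the shares were 19.4% and 1.63%, for the MEF2 site 16.1% and 3.19%, and for TATAAA 22.6% and 13.6%. A match describes letters in a window and not a bound site. The 250 bases upstream of 4 members are shown, a choice made after their values were seen. Among the members, Myh4 lay farthest below muscle in osteosarcoma 1, Myl3 and Myom1 differed between the tumours, and the Tpm2 probe used stayed high in leiomyosarcomas. Capitals mark matches of these motifs on either strand.
Myh4, chr11:67237562-67237811, plus strand: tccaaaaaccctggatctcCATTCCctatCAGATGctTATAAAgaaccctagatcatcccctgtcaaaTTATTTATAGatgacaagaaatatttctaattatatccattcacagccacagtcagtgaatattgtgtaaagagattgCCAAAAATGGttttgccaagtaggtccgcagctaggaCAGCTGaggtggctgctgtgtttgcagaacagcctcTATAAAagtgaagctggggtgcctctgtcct
Myl3, chr9:110763428-110763677, plus strand: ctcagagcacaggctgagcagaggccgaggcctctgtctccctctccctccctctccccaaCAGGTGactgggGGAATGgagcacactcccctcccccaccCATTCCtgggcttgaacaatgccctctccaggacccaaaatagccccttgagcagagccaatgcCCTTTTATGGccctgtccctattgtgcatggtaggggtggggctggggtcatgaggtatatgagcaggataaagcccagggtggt
Myom1, chr17:71019307-71019556, plus strand: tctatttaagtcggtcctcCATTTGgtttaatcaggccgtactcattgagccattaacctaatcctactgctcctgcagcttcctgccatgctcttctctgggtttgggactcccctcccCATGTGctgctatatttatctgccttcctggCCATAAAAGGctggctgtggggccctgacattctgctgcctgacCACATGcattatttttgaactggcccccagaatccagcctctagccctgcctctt
Tpm2, chr4:43523555-43523804, minus strand: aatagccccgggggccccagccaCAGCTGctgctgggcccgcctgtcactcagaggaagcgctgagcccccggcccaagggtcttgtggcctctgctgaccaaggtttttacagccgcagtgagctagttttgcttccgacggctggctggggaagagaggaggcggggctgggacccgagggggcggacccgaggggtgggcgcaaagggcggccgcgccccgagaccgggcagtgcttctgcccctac
The Myh4 sequence held a CArG box, a MEF2 site, 3 TATAAA, 1 CATTCC and 2 CANNTG. The MEF2 site overlapped 1 TATAAA, and an E-box had the letters CAGCTG. Myl3 and Myom1 each held 1 CArG box, with 1 and 3 CANNTG, and Myl3 also held 2 CATTCC. The Tpm2 sequence held 1 E-box, with the letters CAGCTG, and none of the other motifs searched.

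The 34 genes were high in muscle and spread widely among the tumours. Their median level was 10.82, 4.80, 6.59 and 7.47 in osteosarcomas 1 to 4, 4.70, 5.42, 4.89 and 4.80 in leiomyosarcomas 1 to 4, 4.87 and 4.80 in bone marrows 1 and 2, and 13.42 and 13.28 in muscles 1 and 2. Osteosarcoma 1 therefore stood far above every other tumour, osteosarcomas 3 and 4 lay between, and osteosarcoma 2, the leiomyosarcomas and the marrows lay at or near the floor. The number of members detected was 33, 12, 24 and 26 in osteosarcomas 1 to 4, 11, 20, 14 and 13 in leiomyosarcomas 1 to 4, 12 and 13 in bone marrows, and 32 and 34 in muscles. In bulk tissue, fewer cells of a type and less RNA per cell cannot be told apart.

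Against muscle, the set was lower in each of the other tissues. In osteosarcoma 26 of 34 members fell and 0 rose (limma, Benjamini-Hochberg adjusted p under 0.05 and a log2 difference of at least 1), where of all genes tested 14.5% fell and 18.5% rose, or 33.0% in either direction. In leiomyosarcoma 31 of 34 fell and 0 rose, where 15.1% of all genes fell and 20.1% rose, or 35.2% in either direction. In bone marrow 29 of 34 fell and 0 rose, where 19.7% of all genes fell and 20.3% rose, or 40.1% in either direction. The 3 members not called in leiomyosarcoma were Myh7, Tnni1 and Tpm2. The median log2 difference from muscle was −5.71 in osteosarcoma, −7.73 in leiomyosarcoma and −7.70 in bone marrow, while the medians of all genes were 0.06, 0.08 and −0.03. The probe used was undetected on every array of osteosarcoma for 1 member, of leiomyosarcoma for 14 and of bone marrow for 21, and with those members at the lower bound of their fold the medians were −5.71, −7.20 and −6.94. Detected in both muscles and lower without overlap were 28 of 34 members in osteosarcoma (23.7% of all genes), 32 in leiomyosarcoma (24.5%) and 31 in bone marrow (31.8%). These 3 comparisons share the 2 muscle samples. Neb, counted in each, was detected in muscle alone, so its place was set by the detection filter.

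On the 6 arrays of low background, which hold leiomyosarcomas 1 and 2 and both muscles, 32 members were called lower in leiomyosarcoma and 29 in bone marrow. No set of 1 background level holds both osteosarcoma and muscle. With the background level as a block, 29 members were called in leiomyosarcoma against muscle, and 18 in osteosarcoma against muscle with a median of −5.44. Without osteosarcoma 1, 31 members were called in osteosarcoma against muscle, with a median of −6.80. Without muscle 2 the counts were 24 in osteosarcoma, 27 in leiomyosarcoma and 28 in bone marrow.

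**Figure D1:**
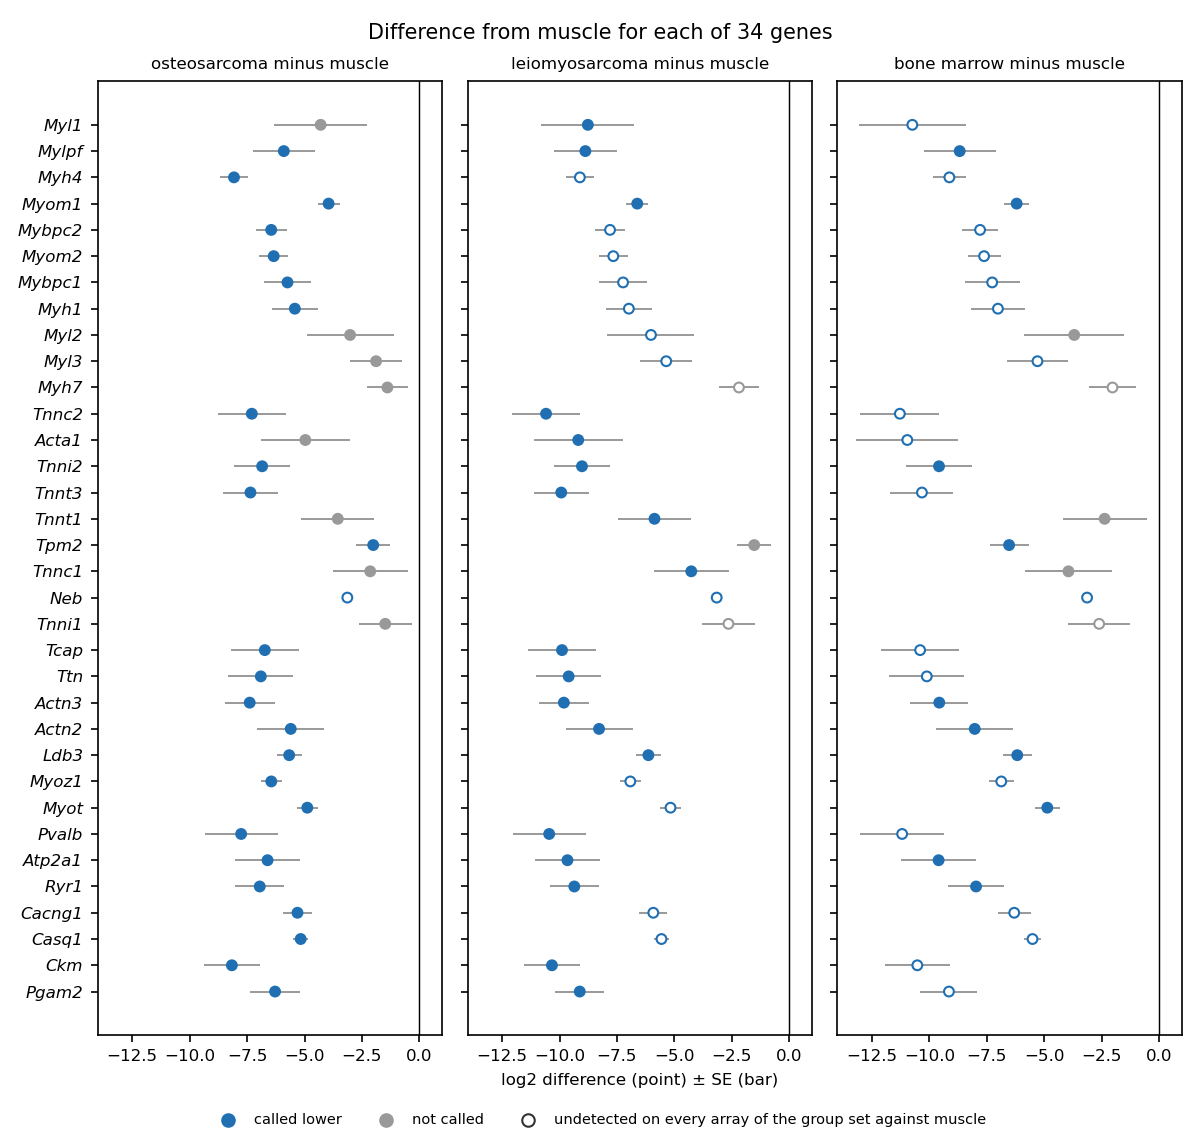
Log2 difference from muscle (points, with SE bars) for the 34 genes in osteosarcoma, leiomyosarcoma and bone marrow, ordered by role as in the plot of levels by sample. Open points are genes whose probe was undetected on every array of the group set against muscle, so that only a bound is known. All 34 points lie below 0 in each panel, and the grey points, which were not called, are mostly slow-fibre genes.

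The thick filament was represented by 11 tested genes. Against muscle 7 fell in osteosarcoma (14.5% of all genes), 10 in leiomyosarcoma (15.1%) and 9 in bone marrow (19.7%). Myl1, the alkali light chain of fast myosin, had levels of 15.36, 6.14, 11.41 and 12.52 in osteosarcomas 1 to 4, 4.86, 10.01, 7.75 and 4.94 in leiomyosarcomas 1 to 4, 4.90 and 4.93 in bone marrows 1 and 2, against 15.68 and 15.63 in muscles 1 and 2. Osteosarcoma 1 lay just under both muscles, whereas leiomyosarcomas 1 and 4 and both marrows lay at the floor. The difference was −8.77 ± 2.02 (SE; adjusted p = 0.00402) for leiomyosarcoma against muscle and −4.30 ± 2.02 (adjusted p = 0.106) for osteosarcoma against muscle, which was not called. Without osteosarcoma 1 the difference of osteosarcoma from muscle was −5.63 (adjusted p = 0.0283). For leiomyosarcoma, leaving out leiomyosarcoma 2 gave −9.81, leaving out leiomyosarcoma 1 gave −8.09 and leaving out leiomyosarcoma 4 gave −8.12.

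Mylpf, the regulatory light chain of fast myosin, had levels of 13.12, 6.35, 8.07 and 9.72 in osteosarcomas 1 to 4, 5.60, 7.66, 6.57 and 5.55 in leiomyosarcomas 1 to 4, 6.83 and 6.25 in bone marrows 1 and 2, against 15.11 and 15.33 in muscles 1 and 2. It was detected on all 12 arrays, and every tumour and marrow lay below both muscles, with osteosarcoma 1 the nearest. Mylpf fell by 5.90 ± 1.36 (adjusted p = 0.00421) in osteosarcoma and fell by 8.88 ± 1.36 (adjusted p = 0.000264) in leiomyosarcoma against muscle. The osteosarcoma value was −7.17 without osteosarcoma 1 and −4.91 without osteosarcoma 2, and it lost its call with the background level as a block (adjusted p = 0.103). The fast myosin heavy chain Myh4, of the most glycolytic fibres, had levels of 7.25, 4.47, 5.24 and 5.17 in osteosarcomas 1 to 4, 4.50, 4.51, 4.47 and 4.48 in leiomyosarcomas 1 to 4, 4.46 and 4.50 in bone marrows 1 and 2, against 14.39 and 12.81 in muscles 1 and 2. It fell by 8.07 ± 0.62 in osteosarcoma and was at least 336-fold lower in leiomyosarcoma and 280-fold lower in bone marrow, where it was detected on 0 arrays. In osteosarcoma it was detected in osteosarcoma 1 alone, and the difference was −7.28 without muscle 1 and −8.86 without muscle 2. The bounds were 194-fold in leiomyosarcoma and 162-fold in bone marrow without muscle 1, and 580-fold and 484-fold without muscle 2.

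Myom1 and Myom2 encode myomesins, which crosslink the thick filaments at the M-band. Myom1 was detected in every sample, at 10.15, 8.23, 9.09 and 10.17 in osteosarcomas 1 to 4, 7.07, 7.07, 6.38 and 6.48 in leiomyosarcomas 1 to 4, 7.27 and 7.06 in bone marrows 1 and 2, against 13.59 and 13.14 in muscles 1 and 2. The osteosarcomas lay between muscle and the other tissues with no overlap on either side, while the leiomyosarcomas lay at the marrow level. Myom1 fell by 3.95 ± 0.48 (adjusted p = 5.91e-05) in osteosarcoma and fell by 6.62 ± 0.48 (adjusted p = 1.78e-06) in leiomyosarcoma against muscle. Myom2 fell by 6.34 ± 0.62 in osteosarcoma (−6.98 without osteosarcoma 1) and was at least 136-fold lower in leiomyosarcoma. Myh1, another fast heavy chain, and the myosin-binding proteins Mybpc1 and Mybpc2 fell in all 3 comparisons, with differences of −5.42, −5.74 and −6.45 in osteosarcoma, and −6.49, −6.79 and −7.04 without osteosarcoma 1. In osteosarcoma, Mybpc1 was −6.88 and Mybpc2 −5.71 without muscle 1, and without muscle 2 they were −4.60 and −7.19. Myh1, Myh4 and Myh2 are neighbours on chromosome 11 with closely similar coding sequences, and binding of a probe to a related heavy chain was not tested.

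Of the 9 thin-filament genes, 5 fell in osteosarcoma (14.5% of all genes), 7 in leiomyosarcoma (15.1%) and 6 in bone marrow (19.7%) against muscle. Acta1, the actin of adult skeletal muscle, was at 14.89, 5.64, 9.79 and 11.73 in osteosarcomas 1 to 4, 4.60, 9.03, 6.63 and 4.90 in leiomyosarcomas 1 to 4, 4.53 and 4.50 in bone marrows 1 and 2, against 15.39 and 15.56 in muscles 1 and 2. The order over the osteosarcomas was that of the whole set, with osteosarcoma 1 near the muscles and osteosarcoma 2 near the floor, and leiomyosarcoma 2 was the highest of its group. Acta1 fell by 9.19 ± 1.93 (adjusted p = 0.00226) in leiomyosarcoma (−10.10 without leiomyosarcoma 2) and was at least 1025-fold lower in bone marrow. In osteosarcoma its difference of −4.96 ± 1.93 was not called (adjusted p = 0.0555), and it was called without osteosarcoma 1 (−6.42, adjusted p = 0.0078) and without leiomyosarcoma 2 (adjusted p = 0.0490).

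The troponin complex gives the thin filament its calcium switch, with troponin C binding calcium, troponin I inhibiting and troponin T binding tropomyosin. Fast troponin C, Tnnc2, was at 12.49, 4.82, 7.62 and 9.01 in osteosarcomas 1 to 4, 4.46, 6.75, 4.88 and 4.67 in leiomyosarcomas 1 to 4, 4.48 and 4.52 in bone marrows 1 and 2, against 15.84 and 15.72 in muscles 1 and 2. It was undetected in bone marrow and on 3 of 4 leiomyosarcomas, and fell by 7.30 ± 1.49 (adjusted p = 0.00205) in osteosarcoma (−8.63 without osteosarcoma 1 and −6.07 without osteosarcoma 2). With the background level as a block the osteosarcoma call of Tnnc2 was lost (adjusted p = 0.0741). Fast troponin I, Tnni2, was at 11.92, 5.60, 7.34 and 8.66 in osteosarcomas 1 to 4, 5.65, 7.12, 6.23 and 5.80 in leiomyosarcomas 1 to 4, 6.10 and 5.19 in bone marrows 1 and 2, against 15.24 and 15.20 in muscles 1 and 2, and was detected on all 8 tumours. It fell by 6.85 ± 1.23 in osteosarcoma (−8.03 without osteosarcoma 1 and −5.92 without osteosarcoma 2) and fell by 9.02 ± 1.23 in leiomyosarcoma. Fast troponin T, Tnnt3, which lies next to Tnni2 with 1 gene between them on chromosome 7, fell by 7.36 ± 1.19 in osteosarcoma and fell by 9.92 ± 1.19 in leiomyosarcoma, and its osteosarcoma value was −8.51 without osteosarcoma 1 and −6.41 without osteosarcoma 2. Neb, the giant ruler protein nebulin, was at 7.40 and 7.99 in muscles 1 and 2 and was undetected on all arrays of the other tissues. It passed the detection filter through the muscles alone, so its place below muscle was set by the filter. Neb was at least 5.53-fold lower in osteosarcoma, 5.59-fold lower in leiomyosarcoma and 4.67-fold lower in bone marrow.

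All 7 Z-disc and titin genes fell in osteosarcoma (14.5% of all genes), in leiomyosarcoma (15.1%) and in bone marrow (19.7%). Tcap, the titin cap, was at 12.67, 4.95, 8.002 and 8.78 in osteosarcomas 1 to 4, 4.70, 6.99, 5.27 and 4.79 in leiomyosarcomas 1 to 4, 4.86 and 5.001 in bone marrows 1 and 2, against 15.30 and 15.36 in muscles 1 and 2. Ttn, titin itself, was at 12.15, 4.79, 6.92 and 8.80 in osteosarcomas 1 to 4, 5.17, 6.46, 4.82 and 5.42 in leiomyosarcomas 1 to 4, 5.10 and 4.81 in bone marrows 1 and 2, against 14.89 and 15.24 in muscles 1 and 2. In both genes osteosarcoma 1 was the nearest to the muscles, and the leiomyosarcomas lay at or near the floor except leiomyosarcoma 2. Ttn fell by 6.90 ± 1.42 (adjusted p = 0.00215) in osteosarcoma (−8.23 without osteosarcoma 1 and −5.78 without osteosarcoma 2), and fell by 9.60 ± 1.42 (adjusted p = 0.000207) in leiomyosarcoma. Tcap fell by 6.73 ± 1.48 in osteosarcoma (−8.09 without osteosarcoma 1 and −5.51 without osteosarcoma 2). With the background level as a block the osteosarcoma calls of Tcap (adjusted p = 0.0974) and Ttn (adjusted p = 0.0731) were lost.

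Actn2, an alpha-actinin that anchors actin in the Z-disc of all fibres, was at 12.89, 5.28, 7.83 and 9.11 in osteosarcomas 1 to 4, 6.07, 7.17, 5.65 and 5.51 in leiomyosarcomas 1 to 4, 6.75 and 5.96 in bone marrows 1 and 2, against 13.94 and 14.82 in muscles 1 and 2. Osteosarcoma 1 was the nearest to the muscles and osteosarcoma 2 lay under both marrows. Actn2 fell by 5.60 ± 1.46 (adjusted p = 0.00859) in osteosarcoma, a call that was lost without muscle 2 (−5.16, adjusted p = 0.0661) and with the background level as a block (adjusted p = 0.184). It was −6.97 without osteosarcoma 1 and −4.44 without osteosarcoma 2. Actn3, the alpha-actinin of fast fibres, fell by 7.39 ± 1.09 in osteosarcoma and fell by 9.81 ± 1.09 in leiomyosarcoma, with −8.48 and −6.59 in osteosarcoma without osteosarcomas 1 and 2 in turn. Ldb3, a Z-disc scaffold also called cypher, was at 7.57, 5.29, 5.24 and 5.59 in osteosarcomas 1 to 4, 5.68, 5.41, 5.29 and 5.47 in leiomyosarcomas 1 to 4, 5.43 and 5.41 in bone marrows 1 and 2, against 12.002 and 11.18 in muscles 1 and 2, and only osteosarcoma 1 stood apart from the other 3 osteosarcomas. Myoz1, the fast-fibre calsarcin, was at 6.10, 4.64, 4.75 and 4.61 in osteosarcomas 1 to 4, 4.54, 4.69, 4.49 and 4.51 in leiomyosarcomas 1 to 4, 4.56 and 4.65 in bone marrows 1 and 2, against 12.32 and 10.62 in muscles 1 and 2, and Myot, the Z-disc protein myotilin, fell by 4.88 ± 0.46 in osteosarcoma. Both probes used were detected in osteosarcoma 1 alone among the tumours. In leiomyosarcoma Myot was at least 28.5-fold lower than in muscle and Myoz1 at least 76.7-fold lower, and the Myoz1 bound was 42.6-fold without muscle 1 and 138-fold without muscle 2. The Myoz1 difference of −6.45 in osteosarcoma was −5.60 without muscle 1 and −7.30 without muscle 2.

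All 5 tested genes of calcium handling and both genes of energy supply fell in osteosarcoma, leiomyosarcoma and bone marrow. Of all genes, 14.5%, 15.1% and 19.7% fell in these comparisons. Pvalb, the calcium buffer of fast fibres, was at 13.03, 4.94, 7.44 and 6.98 in osteosarcomas 1 to 4, 4.70, 6.84, 5.11 and 4.98 in leiomyosarcomas 1 to 4, 4.71 and 4.63 in bone marrows 1 and 2, against 15.82 and 15.89 in muscles 1 and 2. Atp2a1, the fast calcium pump of the sarcoplasmic reticulum, was at 12.37, 5.13, 8.56 and 9.55 in osteosarcomas 1 to 4, 5.38, 7.35, 5.88 and 4.81 in leiomyosarcomas 1 to 4, 6.34 and 5.49 in bone marrows 1 and 2, against 15.51 and 15.51 in muscles 1 and 2. Ryr1, the calcium release channel, was at 10.81, 5.45, 6.26 and 7.49 in osteosarcomas 1 to 4, 4.96, 5.43, 5.21 and 4.79 in leiomyosarcomas 1 to 4, 6.60 and 6.38 in bone marrows 1 and 2, against 14.27 and 14.63 in muscles 1 and 2. In Pvalb and Atp2a1 the leiomyosarcoma 2 sample was above the others of its group, while Ryr1 in leiomyosarcomas lay under both marrows. Atp2a1 fell by 6.61 ± 1.42 (adjusted p = 0.00276) in osteosarcoma (−7.77 without osteosarcoma 1 and −5.35 without osteosarcoma 2), and Ryr1 fell by 6.95 ± 1.06 (adjusted p = 0.000286), with −8.05 and −6.27 in those settings. Pvalb fell by 7.76 ± 1.59 (adjusted p = 0.0021) in osteosarcoma (−9.40 without osteosarcoma 1 and −6.71 without osteosarcoma 2). The unsubtracted Pvalb signal was 97.1% of the array's highest in muscle 1 and was itself the highest in muscle 2, and signals of over 90% of the highest were also read for Tnnc2 in both muscles and Myl1 in muscle 1. The files used carry no saturation flag, and saturation of these 3 probes in muscle was not tested. With the background level as a block the calls of Atp2a1 (adjusted p = 0.0985) and Pvalb (adjusted p = 0.0707) in osteosarcoma were lost.

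Casq1, the calcium store protein of fast fibres, and Cacng1, a subunit of the voltage sensor channel, were at the floor in the other tissues, apart from osteosarcoma 1. Casq1 was at least 29.9-fold and Cacng1 at least 48.7-fold lower in leiomyosarcoma than in muscle. Cacng1 was at 7.43, 4.79, 4.88 and 4.94 in osteosarcomas 1 to 4, 5.06, 4.77, 4.89 and 4.89 in leiomyosarcomas 1 to 4, 4.48 and 4.56 in bone marrows 1 and 2, against 10.30 and 11.34 in muscles 1 and 2. Ckm, the muscle creatine kinase that buffers ATP, was at 10.83, 4.63, 5.66 and 6.60 in osteosarcomas 1 to 4, 4.65, 5.37, 4.59 and 4.45 in leiomyosarcomas 1 to 4, 4.62 and 4.52 in bone marrows 1 and 2, against 15.33 and 14.85 in muscles 1 and 2. Pgam2, the muscle phosphoglycerate mutase of glycolysis, was at 10.37, 4.64, 7.61 and 8.16 in osteosarcomas 1 to 4, 4.62, 5.39, 4.63 and 4.80 in leiomyosarcomas 1 to 4, 4.88 and 4.79 in bone marrows 1 and 2, against 14.41 and 13.55 in muscles 1 and 2. Both were low in osteosarcoma 2 and in the marrows. Ckm fell by 8.17 ± 1.22 (adjusted p = 0.000257) in osteosarcoma (−9.46 without osteosarcoma 1 and −7.40 without osteosarcoma 2), and Pgam2 fell by 6.28 ± 1.07 (adjusted p = 0.000633), with −7.18 and −5.27 in those settings. In bone marrow Ckm was at least 787-fold and Pgam2 at least 363-fold lower than in muscle.

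All 7 slow-fibre genes were higher in muscle 2 than in muscle 1, by 2.28 (Mybpc1) to 5.53 (Myl2) with a median of 4.45, whereas the 13 fast-fibre genes differed by −1.70 (Myoz1) to 0.50 (Myh1) with a median of −0.04, and the other 14 by −0.94 to 1.04. With 1 sample of each, these are differences between 2 samples with no test. Myh7 and Tnni1 were undetected in muscle 1, so their differences are from the floor. The slow-fibre median of 4.45 is the Tnni1 difference. Myl2, the slow regulatory light chain, was at 12.83, 4.78, 5.49 and 7.45 in osteosarcomas 1 to 4, 4.58, 4.46, 4.66 and 4.83 in leiomyosarcomas 1 to 4, 6.80 and 7.13 in bone marrows 1 and 2, against 7.89 and 13.42 in muscles 1 and 2. Tnnt1, slow troponin T, was at 12.50, 5.73, 7.19 and 8.94 in osteosarcomas 1 to 4, 6.28, 6.002, 5.93 and 6.89 in leiomyosarcomas 1 to 4, 9.55 and 10.003 in bone marrows 1 and 2, against 9.67 and 14.62 in muscles 1 and 2. In both genes muscle 1 lay far under muscle 2, and in Tnnt1 the marrows were at the level of muscle 1.

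Tnnc1, the slow and cardiac troponin C, was at 12.17, 4.84, 7.21 and 9.03 in osteosarcomas 1 to 4, 6.18, 5.76, 6.03 and 6.79 in leiomyosarcomas 1 to 4, 6.07 and 6.95 in bone marrows 1 and 2, against 8.07 and 12.84 in muscles 1 and 2. Myh7, the slow myosin heavy chain, was at 7.79, 4.73, 4.75 and 4.66 in osteosarcomas 1 to 4, 4.54, 4.90, 4.83 and 4.47 in leiomyosarcomas 1 to 4, 4.81 and 4.89 in bone marrows 1 and 2, against 5.36 and 8.39 in muscles 1 and 2. Tnni1, slow troponin I, was at 8.53, 4.43, 4.92 and 5.01 in osteosarcomas 1 to 4, 4.38, 4.70, 4.50 and 4.66 in leiomyosarcomas 1 to 4, 4.64 and 4.56 in bone marrows 1 and 2, against 4.98 and 9.43 in muscles 1 and 2. Osteosarcoma 1 lay above muscle 1 in 6 of the 7 slow-fibre genes, all but Mybpc1, and below muscle 2 in 7 of 7, with a median difference of 2.84 from muscle 1 and −0.90 from muscle 2. In the 13 fast-fibre genes osteosarcoma 1 was below both muscles in 13 of 13, with medians of −3.35 and −3.29.

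**Figure D2:**
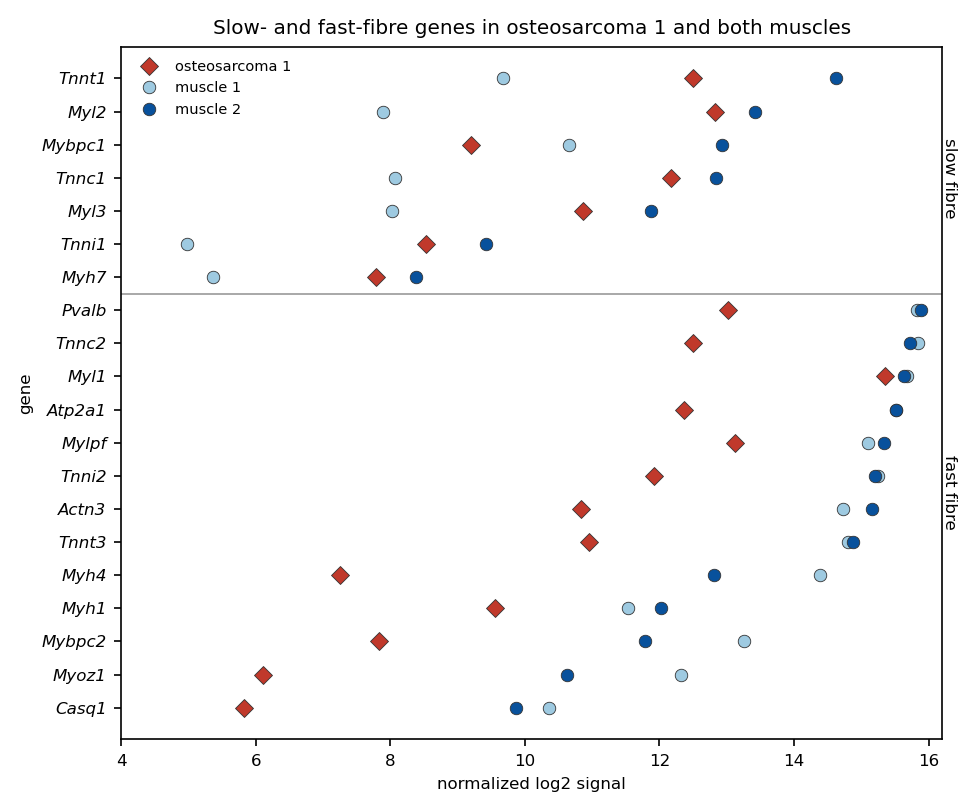
Normalised log2 signal of the 7 slow-fibre and 13 fast-fibre genes (rows) in osteosarcoma 1 (red diamonds), muscle 1 (pale circles) and muscle 2 (dark circles). Slow-fibre genes are spread apart between the muscles, with osteosarcoma 1 nearer to muscle 2 except for Mybpc1, while both muscles nearly coincide for most fast-fibre genes and osteosarcoma 1 lies to their left.

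Against muscle, 1 of 7 slow-fibre genes fell in osteosarcoma (Mybpc1), 5 of 7 in leiomyosarcoma and 2 of 7 in bone marrow (Myl3 and Mybpc1). Of 13 fast-fibre genes 12, 13 and 13 fell, and of all genes 14.5%, 15.1% and 19.7%. The slow-fibre counts in osteosarcoma and bone marrow were near those shares and are not read as a trait of these genes. Tnnt1 had a difference of −3.55 ± 1.58 in osteosarcoma (adjusted p = 0.0889) and of −2.37 ± 1.83 in bone marrow (adjusted p = 0.329), and fell by 5.87 ± 1.58 in leiomyosarcoma (adjusted p = 0.00979). Tnnc1 in leiomyosarcoma sat at the threshold, at −4.26 ± 1.63 (adjusted p = 0.0499), and lost its call without muscle 2 (−1.88, adjusted p = 0.470) and without each leiomyosarcoma, each marrow or osteosarcoma 3 or 4 in turn (adjusted p between 0.0579 and 0.0854). The leiomyosarcoma falls of Myl2, Myl3 and Tnnt1 were not called without muscle 2 either, and nor was the bone marrow fall of Myl3. Tnnt1 was then at −3.39, Myl2 and Myl3 in leiomyosarcoma were at least 6.4-fold and 7.04-fold lower, against 43.4-fold and 26.7-fold with both muscles, and Myl3 in bone marrow was at least 5.87-fold lower, against 22.3-fold. Without muscle 2, 1 of 7 slow-fibre genes was called in each comparison and 4 osteosarcoma differences turned above 0, which were 0.12 for Myh7, 0.038 for Myl3, 0.24 for Tnnc1 and 0.74 for Tnni1, though Myh7 and Tnni1 were undetected in muscle 1. Without muscle 1 the counts were 5 in osteosarcoma, 7 in leiomyosarcoma and 5 in bone marrow, and without osteosarcoma 1 they were 5, 7 and 5. The counts of fast-fibre genes were 12 or 13 in all of these settings.

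The tumours differed among themselves in how much of the set they held. Of 33 genes whose probe was detected in at least 1 osteosarcoma, osteosarcoma 1 had the highest value for 31 and osteosarcoma 4 for the other 2. Myh4, Myh7, Tnni1, Myoz1, Myot, Casq1 and Cacng1 were detected in osteosarcoma 1 alone, so their place was set by the detection filter. Of the 10 genes detected in all 4 osteosarcomas, osteosarcoma 2 had the lowest value for 9, and the order was osteosarcoma 1, then 4, then 3, then 2 for 7. Over those 10 genes osteosarcoma 1 exceeded the mean of the other osteosarcomas by a median of 4.90 log2 units, from 0.46 (Tpm2) to 5.84 (Acta1). Of 20 genes detected in at least 1 leiomyosarcoma, leiomyosarcoma 2 had the highest value for 15. Among these, Tnnc2, Tnnt3, Actn3, Pvalb, Ckm and Pgam2 were detected in leiomyosarcoma 2 alone of its group, so the filter set their place too. The genes of the set varied together, and the share of all genes with a given sample highest was not counted.

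Another 41 tested genes of skeletal muscle fibres, from a list of 50, gave the same picture by sample, with medians of 8.42, 4.89, 5.56 and 5.77 in osteosarcomas 1 to 4, 4.79 to 4.94 in leiomyosarcomas, 4.69 to 4.75 in bone marrows and 11.26 to 11.49 in muscles. Their summed linear level was 12827 to 64389 in osteosarcomas, 13193 to 17704 in leiomyosarcomas, 4744 to 5865 in bone marrows and 262188 to 294786 in muscles. The osteoblast medians were 12.78, 11.01, 11.77 and 11.63 in osteosarcomas 1 to 4, so the highest and the lowest osteosarcoma were the same as for the muscle genes, over a narrower range. The part of muscle tissue in any of these samples was not tested.

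**Figure D3:**
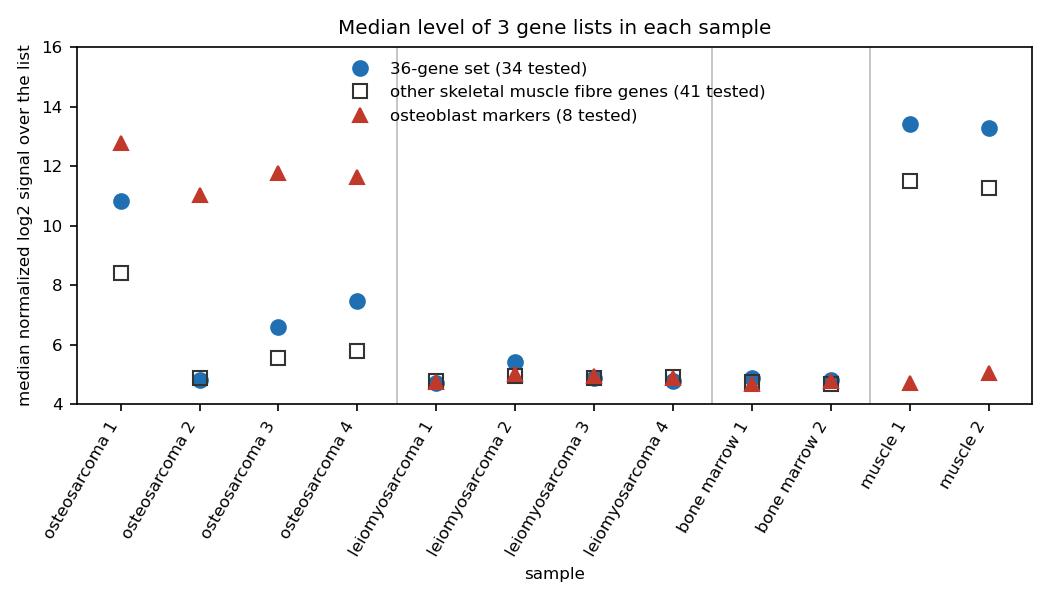
Median normalised log2 signal over the 34 tested genes of the set (blue circles), 41 other skeletal muscle fibre genes (open squares) and 8 osteoblast markers (red triangles) in each sample. The muscle lists peak in both muscles and in osteosarcoma 1, and the osteoblast markers are high in all 4 osteosarcomas only.

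Against bone marrow, the share of members that rose in osteosarcoma was close to that of all genes. That count is therefore not read as a trait of the set. In osteosarcoma 5 of 34 rose, which were Acta1, Myl1, Myl3, Tpm2 and Myom1, and 0 fell (14.8% of all genes rose and 13.0% fell, or 27.8% in either direction), with a median difference of 1.99 against 0.03 for all genes. In leiomyosarcoma 1 of 34 rose, Tpm2, and 0 fell (15.2% of all genes rose and 12.7% fell, or 27.9% in either direction), with a median of −0.02 against 0.00 for all genes. At an unadjusted p under 0.05 there were 11 members in osteosarcoma (46.2% of all genes) and 2 in leiomyosarcoma (45.3%). Detected in all 4 osteosarcomas and wholly above the marrows were the same 5 members (25.2% of all genes). Tpm2 alone was detected in all 4 leiomyosarcomas and wholly above the marrows (25.8%). The leiomyosarcomas lay wholly below for 3 members detected in both marrows (27.5%), Tnnt1, Myl2 and Ryr1.

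Acta1 and Myl1 were undetected in both marrows and were at least 32.8-fold and 59-fold higher in osteosarcoma (adjusted p = 0.0294 and 0.0263). Without osteosarcoma 1 the bounds were 11.9-fold (adjusted p = 0.0479) and 23.4-fold (adjusted p = 0.0506), and without osteosarcoma 2 they were 101-fold and 197-fold. Both calls were lost without bone marrow 1, bone marrow 2 or osteosarcoma 4. Tpm2 rose by 4.52 ± 0.74 (adjusted p = 0.000491) and Myom1 by 2.25 ± 0.48 (adjusted p = 0.00317) in osteosarcoma, and Tpm2 was 5.22 without osteosarcoma 2. The count for osteosarcoma was 19 without osteosarcoma 2, 4 without osteosarcoma 1, 2 without bone marrow 1 or 2, 3 without osteosarcoma 4 and 2 with the background level as a block. For leiomyosarcoma it was 3 without osteosarcoma 1, 1 of them higher and 2 lower, and 2 on the low-background arrays.

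Between the tumours, 2 of 34 members were higher in osteosarcoma than in leiomyosarcoma and 0 lower, where of all genes 3.31% were higher and 4.34% lower, or 7.65% in either direction. The median difference was 2.25, against 0.01 for all genes, and 16 members had an unadjusted p under 0.05 (26.6% of all genes). Detected in all 4 osteosarcomas and wholly above the leiomyosarcomas were 3 members (7.38% of all genes), Myl3, Myom1 and Ryr1, and 0 were detected in all 4 leiomyosarcomas and wholly above the osteosarcomas (8.82%). Without osteosarcoma 2 the count was 17, with a median of 3.10, and without osteosarcoma 1 it was 1, with a median of 1.00.

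Myom1 was 2.66 ± 0.39 log2 units higher in osteosarcoma (adjusted p = 0.00139), higher in 4 of 4 osteosarcomas than in any leiomyosarcoma, and its other probe gave 6.75, 5.62, 5.90 and 6.86 in osteosarcomas 1 to 4, against 4.72, 4.91, 4.66 and 4.71 in leiomyosarcomas 1 to 4. The values stood at 10.15 and 10.17 in osteosarcomas 1 and 4, whose medians over the set were 10.82 and 7.47. Myl3, the slow and ventricular essential light chain, was at 10.87, 7.02, 8.13 and 6.24 in osteosarcomas 1 to 4, 4.56, 4.58, 4.59 and 4.65 in leiomyosarcomas 1 to 4, 4.67 and 4.64 in bone marrows 1 and 2, against 8.03 and 11.87 in muscles 1 and 2. It was detected on 4 of 4 osteosarcomas and on 0 of 4 leiomyosarcomas and 0 of 2 marrows, and was at least 7.22-fold higher in osteosarcoma than in leiomyosarcoma (adjusted p = 0.0329) and at least 6.03-fold higher than in bone marrow (adjusted p = 0.0346). In Myl3, osteosarcoma 2 lay above osteosarcoma 4, unlike the set as a whole. The Myl3 call against leiomyosarcoma was lost without each leiomyosarcoma, each marrow, osteosarcoma 1 or osteosarcoma 3 in turn (adjusted p between 0.0534 and 0.0746). The bound was 3.78-fold without osteosarcoma 1 (adjusted p = 0.0549) and 11-fold without osteosarcoma 4, and the call was lost on the 6 high-background arrays (adjusted p = 0.160). Against marrow the bound was 3.15-fold without osteosarcoma 1 and 9.19-fold without osteosarcoma 4, and Myl3 was not called when bone marrow 1, bone marrow 2 or osteosarcoma 3 was left out in turn.

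Tpm2, beta-tropomyosin, stayed high in the leiomyosarcomas by the probe used, 1 of 3 that passed. Tropomyosins lie along actin in muscle and non-muscle cells, and Tpm2 is known to have transcripts for both. The probe used, with the highest mean, gave 10.14, 7.70, 9.98 and 11.35 in osteosarcomas 1 to 4, 9.79, 9.99, 10.48 and 10.85 in leiomyosarcomas 1 to 4, 4.99 and 5.55 in bone marrows 1 and 2, against 11.50 and 12.10 in muscles 1 and 2. The leiomyosarcomas lay between osteosarcoma 2 and the muscles and far above the marrows, by 5.005 ± 0.74 log2 units (adjusted p = 0.000246), and their difference of −1.52 ± 0.74 from muscle was not called (adjusted p = 0.11). Another Tpm2 probe gave 12.56, 4.72, 8.17 and 8.98 in osteosarcomas 1 to 4, 4.77, 7.67, 5.88 and 5.30 in leiomyosarcomas 1 to 4, 4.61 and 4.78 in bone marrows 1 and 2, against 14.59 and 15.27 in muscles 1 and 2, which is the order of the sarcomere genes. The remaining passing probe is not shown here and enters only the average. Averaged over the 3 probes, Tpm2 differed from muscle by −4.76 in leiomyosarcoma (adjusted p = 0.000404). The probe used gave −1.91 on the low-background arrays (adjusted p = 0.00591). Averaging also moved the leiomyosarcoma difference from marrow by −2.79 log2 units, with the call kept. The fall of 2.01 ± 0.74 in osteosarcoma (adjusted p = 0.0437) was −1.31 (adjusted p = 0.0326) without osteosarcoma 2, and its call was lost on leaving out each sample but that one and osteosarcoma 4.

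**Figure D4:**
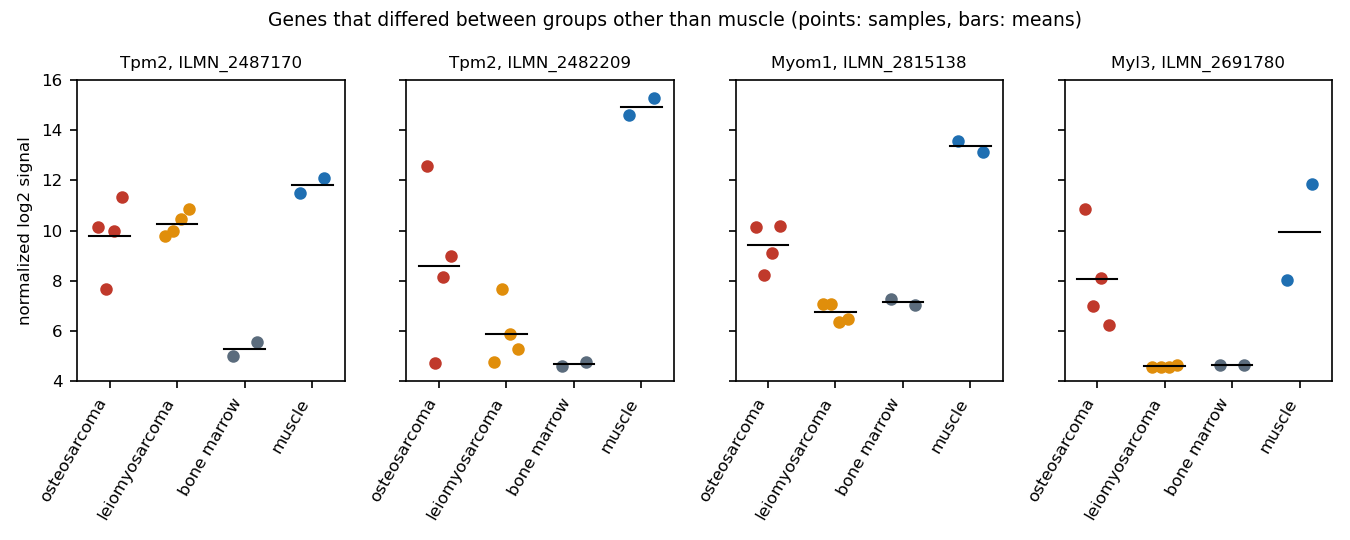
Normalised log2 signal of 2 of the 3 passing Tpm2 probes, Myom1 and Myl3 in each sample (points) with group means (bars). The Tpm2 probe used is high in both tumours, and another Tpm2 probe is high in muscle and osteosarcoma 1. Myom1 and Myl3 are higher in osteosarcomas than in leiomyosarcomas.

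Probes of 1 gene also disagreed elsewhere. Of 13 members with several passing probes, 13 had all of them lower in leiomyosarcoma than in muscle, 12 in osteosarcoma and 11 in bone marrow. The exceptions were a Ldb3 probe, at 4.71, 5.32, 5.90 and 5.20 in osteosarcomas 1 to 4, 4.91, 4.95, 5.01 and 4.68 in leiomyosarcomas 1 to 4, 6.09 and 6.25 in bone marrows 1 and 2, against 5.09 and 5.01 in muscles 1 and 2, and in bone marrow a Ttn probe at 6.13 and 6.02 in bone marrows 1 and 2, against 5.60 and 6.10 in muscles 1 and 2. Both probes were near the floor in muscle, where the probes used for these genes were high. Ldb3, Ttn, Actn2, Mybpc1, Ryr1 and Tpm2 had probes over 3 log2 units apart in each of the 3 comparisons with muscle. Averaged over its probes, Myl1 differed from muscle by −6.15 in osteosarcoma (adjusted p = 0.0029), a call that the probe used did not give.

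Of the other skeletal muscle fibre genes, 36 of 41 fell and 2 rose in osteosarcoma, 37 fell and 2 rose in leiomyosarcoma, and 38 fell and 1 rose in bone marrow against muscle. In these comparisons 14.5%, 15.1% and 19.7% of all genes fell, and 18.5%, 20.1% and 20.3% rose. Fabp3, the fatty acid-binding protein of muscle and heart, was at 10.18, 9.61, 8.99 and 9.52 in osteosarcomas 1 to 4, 5.05, 4.94, 4.81 and 4.93 in leiomyosarcomas 1 to 4, 4.43 and 4.43 in bone marrows 1 and 2, against 12.04 and 13.22 in muscles 1 and 2. Cdh15, M-cadherin of muscle precursor cells, from a list of embryonic and regenerating muscle, was at 9.03, 9.06, 8.55 and 9.004 in osteosarcomas 1 to 4, 4.68, 4.82, 4.54 and 4.66 in leiomyosarcomas 1 to 4, 4.54 and 4.55 in bone marrows 1 and 2, against 7.59 and 8.94 in muscles 1 and 2. In both genes the 4 osteosarcomas lay close together, unlike the sarcomere genes in the same samples, and the leiomyosarcomas were undetected. Fabp3 was at least 20.6-fold and Cdh15 at least 13-fold higher in osteosarcoma than in leiomyosarcoma (adjusted p = 1.91e-06 for both). Fabp3 fell by 3.05 ± 0.34 in osteosarcoma against muscle, and Cdh15 differed by 0.64 ± 0.31 (adjusted p = 0.117). Between the tumours, 4 of the 41 genes were higher in osteosarcoma (3.31% of all genes), 1 was lower (4.34%) and 36 were not called. Beside Fabp3 the higher ones were Hrc, a calcium-binding protein of the sarcoplasmic reticulum (at least 8.84-fold), Sgca, alpha-sarcoglycan (at least 3.13-fold), and Eno3, muscle enolase (by 2.48 ± 0.60), and the lower one was Tpm3 (−1.12 ± 0.24). Hrc, Sgca and Eno3, like Myog and Chrng below, were named after their values were seen.

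The probes used for the tropomyosin genes Tpm1 and Tpm3, which non-muscle cells also use, rose, while most of the list fell. Each was the gene's probe of highest mean over all 12 samples, and which transcripts it reads was not tested. Tpm1 was at 13.02, 13.73, 12.23 and 13.58 in osteosarcomas 1 to 4, 12.94, 12.48, 13.35 and 12.63 in leiomyosarcomas 1 to 4, 9.23 and 9.08 in bone marrows 1 and 2, against 9.58 and 8.73 in muscles 1 and 2, and rose by 3.99 ± 0.41 in osteosarcoma and by 3.70 ± 0.41 in leiomyosarcoma against muscle. Tpm3 was at 10.23, 10.56, 10.93 and 10.24 in osteosarcomas 1 to 4, 11.52, 11.35, 11.77 and 11.79 in leiomyosarcomas 1 to 4, 11.49 and 11.18 in bone marrows 1 and 2, against 8.07 and 7.13 in muscles 1 and 2, and rose by 2.89 ± 0.29 in osteosarcoma, 4.01 ± 0.29 in leiomyosarcoma and 3.74 ± 0.34 in bone marrow. By lowest adjusted p among the falls in leiomyosarcoma, after Fabp3, stood Stac3, a partner of the muscle calcium channel (at least 11-fold lower), Cav3, muscle caveolin (at least 9.05-fold), and Myoz3, a Z-disc calsarcin (at least 48.6-fold). Of 13 tested genes of embryonic and regenerating muscle, 9 fell in osteosarcoma (14.5% of all genes) and 10 in leiomyosarcoma (15.1%). The adhesion molecule Ncam1 was the 1 that rose in both (18.5% and 20.1%). Ncam1 was also 3.66 higher in bone marrow than in muscle (limma, adjusted p = 0.000295). Myog, a myogenic transcription factor, and Chrng, the embryonic acetylcholine receptor subunit, were higher in muscle 2 than in muscle 1, at 10.997 against 6.45 and 13.02 against 8.33.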

How the data were processed

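RNA of 12 mouse samples was hybridised to one-colour Illumina bead arrays. The deposited intensity values are per-probe bead signals with a constant background subtracted, per the file headers, and a second deposited table holds the intensity values without that subtraction. The deposited detection p-value of each probe was made by the authors' scanner software, per the file headers, version not stated.

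Signals were normalised with neqc (limma 3.58.1, R 4.3.3, offset 16), using the detection p-values. Of 45281 probes, 34885 had 1 gene symbol and 34807 of these matched RefSeq. Probes with a detection p under 0.05 on at least 2 arrays were kept (18013 with a name), and each gene took its probe of highest mean, giving 11754 genes. All 12 samples entered 1 limma fit of 4 groups (8 residual degrees of freedom) with 6 comparisons and Benjamini-Hochberg adjustment over all genes within each comparison. The number of arrays limits the precision. The test was tried on simulated independent normal values, without a detection floor or genes that vary together. It therefore does not check calls that rest on values near the floor or on 1 outlying sample. A fold written as "at least" sets the brighter group's mean against the lowest detected signal on the arrays where the probe was undetected.

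The members and lists were chosen with earlier results of these data known. Values in every sample were given for members with the highest means by role, those widely detected in tumours or marrows, those called between tumours or against marrow, and those with a sample far from its group. From the other lists came up to 4 called genes by adjusted p and genes that moved opposite to their list. Sample numbers follow the order of listing, no label ties them to animals, and they were not treated as pairs. Same-numbered samples of different groups did not deviate together (14 pairs, r between −0.08 and 0.08). Neither this check nor the replicate block below, built on the same numbers, bears on pairing by animal. The 2 samples known to share an animal code, a muscle and a bone marrow, were fitted as separate samples. Alternatives covered background, scaling, filters, probes, blocks and left-out samples. Trp53 was not analysed here.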

Additional observations from a re-analysis of the deposited data

Results flagged for a closer look

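In 5 of 53 groups tested, 1 sample lay far from the other 3 of its group by Dixon's criterion, and in all 5 it was osteosarcoma 1. The criterion's rate of about 1 in 20 holds for unrelated genes with normally spread values. The genes of this set varied together over the samples, so the 5 flags were not weighed against that rate. Its log2 signal was 7.79 for Myh7, slow myosin heavy chain, with the next osteosarcoma at 4.75. It was 8.53 for Tnni1, slow troponin I, with the next at 5.01. It was 6.10 for Myoz1, a Z-disc calsarcin, with the next at 4.75, and 7.57 for Ldb3, a Z-disc scaffold, with the next at 5.59. It was 7.43 for Cacng1, a calcium channel subunit, with the next at 4.94. In Myh7, Tnni1, Myoz1 and Cacng1 osteosarcoma 1 was the only osteosarcoma in which the gene was detected. The other 3 values of these genes lay near the floor, where values are drawn together, which makes a flag likelier.

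For 2 members the difference between tumour types passed the test. Myl3, an essential myosin light chain, was at least 7.22-fold higher in osteosarcoma than in leiomyosarcoma, where it was undetected, so that its fitted difference of 3.47 log2 units is a difference from background. Myom1, an M-band myomesin detected in every sample, was 2.66 log2 units higher. The Myl3 call was lost in 8 of the 12 settings that left out 1 sample.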

How the results depend on the processing

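The counts of members called against muscle stayed within 1.5 times of the main counts under every alternative run. Leaving out 1 sample at a time gave 24 to 31 in osteosarcoma, 27 to 33 in leiomyosarcoma and 28 to 32 in bone marrow, with the lowest counts without muscle 2. The same procedure gave 2 to 19 in osteosarcoma against marrow, 1 to 3 in leiomyosarcoma against marrow and 1 to 17 in osteosarcoma against leiomyosarcoma, with 19 and 17 without osteosarcoma 2. Osteosarcoma against marrow gave 3 with unsubtracted values and 2 with no filter on dim probes, with a block for background level, or with a replicate block. Osteosarcoma against leiomyosarcoma gave 1 with unsubtracted values, no filter, the background block, high-background arrays only, the replicate block, or without both osteosarcoma 1 and leiomyosarcoma 2, an alternative chosen after seeing the data. Leiomyosarcoma against marrow gave 2 with all probes separate, on low-background arrays only, or without those 2 samples. The replicate block left the counts against muscle at 26 in osteosarcoma, 30 in leiomyosarcoma and 29 in bone marrow. The osteosarcoma differences from muscle that turned sign without muscle 2 ranged over the left-out muscle samples between −2.91 and 0.12 for Myh7, −3.81 and 0.038 for Myl3, −4.53 and 0.24 for Tnnc1 and −3.71 and 0.74 for Tnni1, and the bone marrow difference of Tnnt1 between −4.84 and 0.11. None of these was called with all samples, and the cause was not tested. Over all genes, unsubtracted values gave 2548 calls against 3884 for osteosarcoma against muscle, 2129 against 3273 for osteosarcoma against marrow, 2095 against 3276 for leiomyosarcoma against marrow and 508 against 899 between the tumours, where high-background arrays alone gave 524. Scaling to the 75th percentile moved the median of all genes by −0.27 for osteosarcoma, −0.28 for leiomyosarcoma and −0.06 for bone marrow against muscle, and by −0.21 and −0.24 for osteosarcoma and leiomyosarcoma against marrow. Signals near the lowest detected level carry no order, which limits every value near 5 on the log2 scale.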
